A study of Mus musculus with 12 samples.

Results

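The hnRNP and SR genes encode 2 families of RNA-binding proteins that take part in the choice of splice sites in pre-mRNA. Their members were taken by symbol from the count tables: every gene whose symbol starts with Hnrnp, and every gene named Srsf with a number, without Hnrnpa1, which the study lists among its 5′-TOP mRNAs. This gave 30 of the 20661 genes counted, 19 hnRNP genes and 11 SR genes. The rule uses no measured value. In Arf-/- mouse embryonic fibroblasts (MEFs) RNA of 8 and ribosome footprints of 20 of the 29 members tested rose against the WT control, where 3.94 and 9.57% of all genes tested were called higher. In the libraries labelled WT-shARF RNA of 5 and footprints of 13 rose, where 3.11 and 5.63% of all genes were called higher. No member fell by the test. Translational efficiency (TE), the footprints relative to the RNA, passed the test for no member, with wide intervals of its change.

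Heterogeneous nuclear ribonucleoproteins (hnRNPs) coat nascent transcripts, often hold back the use of nearby splice sites, and many also act in mRNA export, stability and translation. SR proteins carry a domain rich in arginine and serine, mostly bind exonic enhancers and recruit the spliceosome, and are moved and switched by phosphorylation. Many genes of both families control their own level by splicing in a poison exon that sends the transcript to nonsense-mediated decay (NMD).

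Both assays were run on 3 groups of MEFs with 2 replicates each, which made 12 libraries. All cells were transduced with a lentiviral shRNA and taken at passage 4. The WT-shSCR group was wild-type MEFs with the control shRNA, labelled C57BL/6J (the study's methods name B6129SF2/J). The WT-shARF group was the same MEFs with an shRNA against Arf. The Arf-/- shSCR group was MEFs labelled B6.129X1-Cdkn2atm1Cjs/KaiJ with the control shRNA, in which a neo cassette stands in place of the Arf-specific first exon of Cdkn2a. Strain and genotype therefore cannot be told apart in comparisons with this group. The sources do not say whether replicates were separate cultures, so that p-values measure the spread between these libraries, which may be technical.

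The targeted gene Cdkn2a encodes both p19Arf and p16Ink4a on shared exons that the counts cannot separate, so that its total does not measure Arf alone. Its RNA was 44.8 and 42.0 CPM in WT-shSCR, 644 and 668 CPM in those labelled WT-shARF and 27.7 and 32.2 CPM in Arf-/- shSCR, and its footprints were 93.4 and 66.2 CPM in WT-shSCR, 533 and 741 CPM in those labelled WT-shARF and 39.6 and 34.4 CPM in Arf-/- shSCR. The libraries labelled WT-shARF thus held the most Cdkn2a reads in both assays, and for that reason the group is called by its label throughout. This total cannot show whether Arf itself was lowered. The study shows knockdown and knockout of ARF in MEFs by immunoblot, and states that its shRNA does not alter INK4A expression. Between 1578627 and 3989908 reads per RNAseq library and between 2544319 and 5157572 per ribosome profiling library fell on genes, and other reads (79.2 to 81.4% of alignments for RNA, 46.3 to 52.9% for footprints) had no unique place. All 10 fibroblast markers were detected in every group. Their RNA summed to 21331 and 24782 CPM (TMM-scaled counts relative to library size) in WT-shSCR. It was 22300 and 22125 CPM under the WT-shARF label and 17463 and 16237 CPM in Arf-/- shSCR, the lowest group. Their footprints were lowest there too, at 36621 and 36744 CPM, beside 46806 to 54210 CPM in the other groups. These sums do not stand for each fibroblast marker. In Arf-/- shSCR against WT-shSCR, RNA of 2 of 9 tested was called higher and of 1 lower (3.94 and 3.99% of all genes). In footprints 4 of 10 were called higher and 3 lower (9.57 and 8.95% of all genes). The 11 macrophage markers found summed to 443 and 485 CPM in WT-shSCR RNA, 225 and 148 CPM under the WT-shARF label and 33.8 and 46.4 CPM in Arf-/- shSCR, where Tlr8 and Aif1 were at 0. The 14 proliferation markers moved the other way, from 1944 and 1956 CPM in WT-shSCR to 3166 and 3062 CPM under the WT-shARF label and 3517 and 3276 CPM in Arf-/- shSCR. The 8 mesothelial and epithelial markers summed to 56.8 to 181 CPM in RNA over all groups and were highest in Arf-/- shSCR. All 14 proliferation markers had higher footprints in Arf-/- shSCR by the test, and 10 of them higher RNA. The part of any of these lists in the changes of the splicing factors was not tested. In such bulk samples fewer cells of a type and less RNA per cell cannot be told apart.

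The splicing factors took a larger share of the reads in both other groups than in WT-shSCR. They held 0.385 and 0.414% of gene reads in WT-shSCR RNA, 0.525 and 0.568% in the libraries labelled WT-shARF and 0.601 and 0.54% in Arf-/- shSCR. In footprints the shares were 0.93 and 0.871%, then 1.12 and 1.13%, then 1.3 and 1.31%. In both assays the groups did not overlap with WT-shSCR, and the footprint share was more than the RNA share in each group. Srsf12 had 0 to 2 reads per RNA library and 0 to 8 per footprint library and failed the filter on low counts, so that 29 members, all 19 hnRNP and 10 SR genes, were tested in each fit.

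In WT-shSCR RNA, the highest hnRNP levels per kilobase of coding sequence were those of Hnrnpk at 366 CPM per kb, Hnrnpab at 338 and Hnrnpf at 284 CPM per kb. Among SR genes Srsf3 led with 203 CPM per kb, followed by Srsf2 with 175 and Srsf6 with 122 CPM per kb. In footprints the order was another one, with Hnrnpa2b1 at 844 CPM per kb first, Hnrnpk at 669 next and then Hnrnpa3 at 602 CPM per kb. Levels between genes carry a limit, since reads without a unique place were not counted and many members have processed pseudogenes. Of the 25-mers in the longest coding sequence, 98.2% of those of Hnrnpf, 97.8% of Hnrnpa3, 95.7% of Srsf3, 89.4% of Hnrnpk and 88.7% of Srsf10 also occur in transcripts of other genes (GENCODE M21), whereas Srsf1, Srsf2, Srsf6, Hnrnpab, Hnrnpm and Hnrnpu share none. The share was over 20% for 8 of 19 hnRNP genes and 3 of 11 SR genes. Changes between groups of the same gene are counted on the same positions in every library.

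**Figure D1:**
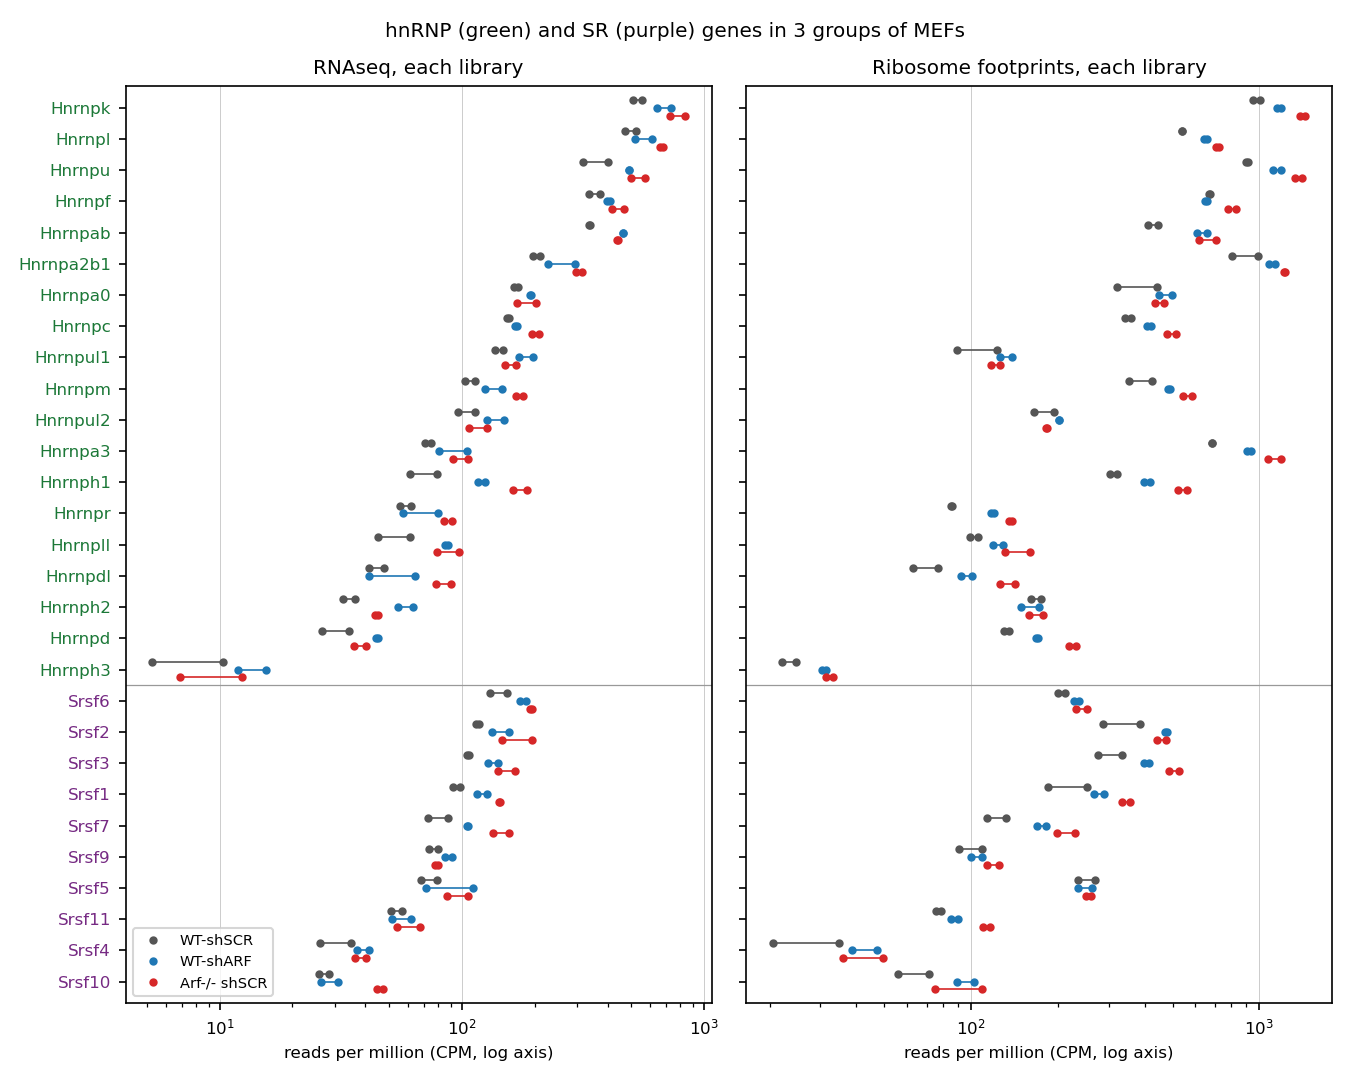
Level of the 29 tested genes in each library on a log axis of CPM, RNAseq on the left and ribosome footprints on the right. Points are the 2 libraries of a group and the line joins them. For Hnrnph1 the footprints lie at 304 and 320 CPM in WT-shSCR and at 524 and 561 CPM in Arf-/- shSCR, and most genes have the gray WT-shSCR pair at the left.

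In Arf-/- shSCR against WT-shSCR, RNA of 6 of 19 hnRNP genes and 2 of 10 SR genes rose, and none fell by the test, against 3.94% of all 10659 genes tested that were called higher and 3.99% called lower. The members called were Hnrnpa2b1, Hnrnpdl, Hnrnph1, Hnrnpk, Hnrnpm, Hnrnpu, Srsf1 and Srsf7. All 29 members had a fitted change above 0, with a median log2 fold change of 0.43 for hnRNP and 0.48 for SR genes beside -0.0038 over all genes tested. At an unadjusted p under 0.05, 19 members were higher and 0 lower, beside 1169 of the 10659 genes higher and 1209 lower. In footprints 14 of 19 hnRNP and 6 of 10 SR genes rose and none fell (9.57% of 10737 genes called higher, 8.95% lower), with medians of 0.52 and 0.55 beside -0.00087 for all genes. Again all 29 fitted changes were above 0, and 23 members were higher and 0 lower at an unadjusted p under 0.05. At that threshold 1623 of the 10737 genes were higher and 1594 lower. Both Arf-/- shSCR libraries lay above both WT-shSCR libraries for 16 of 19 hnRNP and 8 of 10 SR genes in RNA, where 25.3% of all genes tested did so, and for 15 of 19 and 9 of 10 in footprints, where 27.6% did.

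These counts rest on both WT-shSCR libraries. Without either of the WT-shSCR footprint libraries the calls of members were lost, as were those over all genes. A group was then left with 1 library, so that only fitted changes are given. They were above 0 for 28 (without replicate 1) or 26 (without replicate 2) of the 29 members. The median over all genes was then 0.019 or 0.0044. In RNA most calls of members were lost without either of the WT-shSCR libraries, and calls over all genes fell strongly too. Fitted RNA changes were then above 0 for 27 (without replicate 1) or 29 (without replicate 2) members. Without replicate 1 of Arf-/- shSCR fewer members were called, while calls over all genes fell little, and 28 members were above 0.

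In the libraries labelled WT-shARF against WT-shSCR, RNA of 5 hnRNP genes (Hnrnpab, Hnrnph1, Hnrnph2, Hnrnpll and Hnrnpu) and of 0 SR genes rose, and none fell (3.11% of 10503 genes called higher, 4.17% lower). The median log2 fold change was 0.36 for hnRNP and 0.32 for SR genes, and all 29 members were above 0. For SR RNA, where edgeR and DESeq2 both called 0 members, 4 were higher and 0 lower at an unadjusted p under 0.05. At that threshold 1026 of the 10503 genes were higher and 1189 lower. Footprints of 9 hnRNP and 4 SR genes rose and none fell (5.63% of 10307 genes higher, 5.5% lower), with medians of 0.32 and 0.38. Hnrnpf, Hnrnph2 and Srsf5 had footprint changes just under 0, from -0.073 to -0.011. The RNA count went from 5 to 2 with DESeq2, where calls over all genes went from 765 of 10503 to 291 of 17818. Leaving out any 1 library lowered the RNA count as well. Calls over all genes then fell too, other than without WT-shSCR replicate 2, where they rose. Fitted RNA changes stayed above 0 for all 29 members, other than for 24 without WT-shARF replicate 2. The footprint count fell without either WT-shARF library, as did calls over all genes. Fitted footprint changes were then above 0 for 26 (without replicate 1) or 28 (without replicate 2) members. The comparison shares its controls with the former one, so that the agreement in direction is not independent of it.

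**Figure D2:**
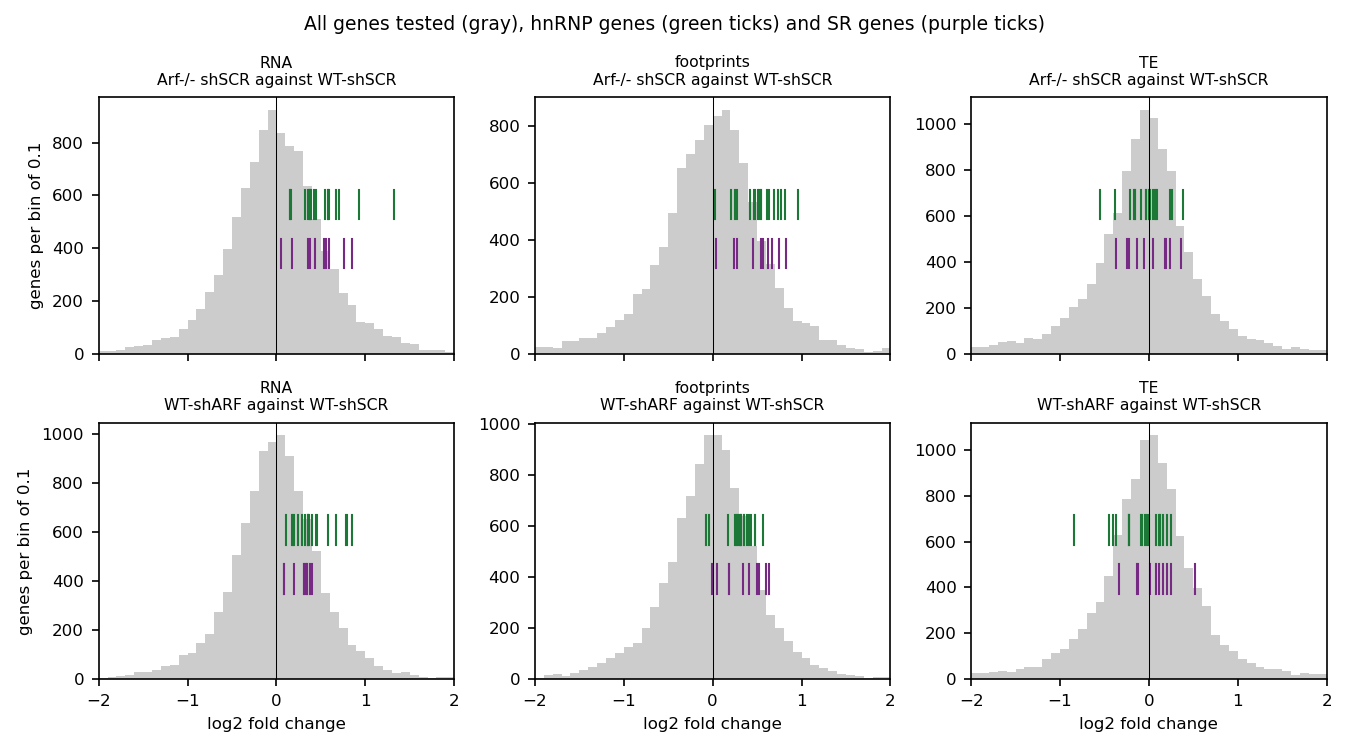
Number of genes per bin of log2 fold change for all genes tested (gray bars, genes beyond a log2 change of 2 not drawn) with each hnRNP gene (green) and SR gene (purple) as a tick, for RNA, footprints and TE in both comparisons with WT-shSCR. The RNA ticks all lie right of 0, with medians of 0.43 and 0.48 in Arf-/- shSCR, as do the footprint ticks other than the 3 just under 0 for WT-shARF, and the TE ticks lie on both sides of 0.

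The G-tract binding hnRNPs, Hnrnpf, Hnrnph1, Hnrnph2 and Hnrnph3, share a kind of RNA recognition motif that holds runs of guanine. Hnrnph1 (chr11:50376990-50386528, GRCm38) had the largest RNA change of all members in Arf-/- shSCR. Its RNA was 61.4 and 78.7 CPM in WT-shSCR, 116 and 124 CPM in those labelled WT-shARF and 162 and 186 CPM in Arf-/- shSCR. Its footprints were 304 and 319.8 CPM in WT-shSCR, 419 and 397 CPM in those labelled WT-shARF and 524 and 561 CPM in Arf-/- shSCR. The 3 groups did not overlap in either assay, with WT-shSCR lowest and Arf-/- shSCR highest. In Arf-/- shSCR the log2 fold change (± SE) was 1.32 ± 0.19 (adjusted p = 1.46e-04) for RNA, a 2.50-fold rise, and 0.81 ± 0.093 (adjusted p = 7.58e-08) for footprints. Under the WT-shARF label it was 0.79 ± 0.18 (adjusted p = 0.00460) for RNA and 0.39 ± 0.093 (adjusted p = 0.00432) for footprints.

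Hnrnph2 (chrX:134601179-134607060) is its close paralog on the X chromosome. Its RNA was 36.1 and 32.3 CPM in WT-shSCR, 54.7 and 63.0 CPM in those labelled WT-shARF and 45.1 and 43.8 CPM in Arf-/- shSCR. Its footprints were 174 and 161 CPM in WT-shSCR, 171 and 148 CPM in those labelled WT-shARF and 159 and 177 CPM in Arf-/- shSCR, and all 3 groups overlapped there. The RNA rose in the libraries labelled WT-shARF, by 0.78 ± 0.21 (adjusted p = 0.0227), beside a footprint change of -0.073 ± 0.12 (adjusted p = 0.796). In Arf-/- shSCR neither RNA at 0.37 ± 0.24 (adjusted p = 0.381) nor footprints at 0.017 ± 0.12 (adjusted p = 0.945) passed the test. Of the 25-mers of Hnrnph2, 76.9% also occur in transcripts of other genes, and Hnrnph1 shares some of its own 25-mers with Hnrnph2.

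Hnrnpf had RNA of 335 and 372 CPM in WT-shSCR, 397 and 409 CPM in those labelled WT-shARF and 468 and 416 CPM in Arf-/- shSCR. Its footprints were 675 and 670.4 CPM in WT-shSCR, 645 and 658 CPM in those labelled WT-shARF and 777 and 831 CPM in Arf-/- shSCR. The footprints of the libraries labelled WT-shARF lay just below those of WT-shSCR, and those of Arf-/- shSCR above both. The footprint change was 0.27 ± 0.08 (adjusted p = 0.0165) in Arf-/- shSCR and -0.045 ± 0.079 (adjusted p = 0.808) in the libraries labelled WT-shARF. Hnrnph3, the least abundant tested hnRNP gene, had 14 to 51 reads per RNA library. Its RNA was 5.27 and 10.3 CPM in WT-shSCR, 15.5 and 11.9 CPM in those labelled WT-shARF and 12.4 and 6.87 CPM in Arf-/- shSCR, and its footprints were 24.6 and 22.1 CPM in WT-shSCR, 31.4 and 30.5 CPM in those labelled WT-shARF and 33.1 and 31.3 CPM in Arf-/- shSCR. Footprints of WT-shSCR lay below those of both other groups, but at 0.47 ± 0.24 (adjusted p = 0.190) in Arf-/- shSCR and 0.40 ± 0.27 (adjusted p = 0.394) in the libraries labelled WT-shARF neither change passed the test.

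The A/B-type proteins, which bind pre-mRNA widely and often silence exons, include Hnrnpa2b1, Hnrnpa3 and Hnrnpa0. Hnrnpa2b1 had RNA of 196 and 209.8 CPM in WT-shSCR, 226 and 293 CPM in those labelled WT-shARF and 313 and 296 CPM in Arf-/- shSCR. Its footprints were 987 and 801 CPM in WT-shSCR, 1131 and 1081 CPM in those labelled WT-shARF and 1229.7 and 1220.2 CPM in Arf-/- shSCR. In each assay the groups stood in the same order without overlap. Its RNA change was 0.59 ± 0.15 (adjusted p = 0.0190) in Arf-/- shSCR and 0.36 ± 0.15, not past the test, in the libraries labelled WT-shARF, and its footprint changes were 0.47 ± 0.083 (adjusted p = 8.41e-05) and 0.31 ± 0.081 (adjusted p = 0.0100). Hnrnpa3 had RNA of 70.8 and 74.9 CPM in WT-shSCR, 80.4 and 105 CPM in those labelled WT-shARF and 92.1 and 106 CPM in Arf-/- shSCR and footprints of 685 and 683 CPM in WT-shSCR, 906 and 938 CPM in those labelled WT-shARF and 1075 and 1186 CPM in Arf-/- shSCR. It is the member with the most footprints for its RNA. Its footprints rose by 0.74 ± 0.079 (adjusted p = 1.64e-08) in Arf-/- shSCR and by 0.43 ± 0.076 (adjusted p = 1.27e-04) in the libraries labelled WT-shARF, while RNA changes of 0.44 ± 0.19 and 0.36 ± 0.18 did not pass. Hnrnpa0 passed in no fit, with footprint changes of 0.25 ± 0.11 and 0.31 ± 0.11.

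Hnrnpd, Hnrnpdl and Hnrnpab form the D-type group, known for binding AU-rich elements that set mRNA stability. Hnrnpdl (chr5:100033577-100039664) had the largest footprint change of all members in Arf-/- shSCR. Its RNA was 41.4 and 47.8 CPM in WT-shSCR, 41.3 and 64.2 CPM in those labelled WT-shARF and 78.2 and 90.6 CPM in Arf-/- shSCR. Its footprints were 62.6 and 76.4 CPM in WT-shSCR, 101 and 92.2 CPM in those labelled WT-shARF and 126 and 142 CPM in Arf-/- shSCR. The Arf-/- shSCR libraries were the highest in both assays, and the libraries labelled WT-shARF overlapped with WT-shSCR in RNA only. The changes in Arf-/- shSCR were 0.93 ± 0.21 (adjusted p = 0.00909) for RNA and 0.96 ± 0.15 (adjusted p = 1.29e-05) for footprints. Under the WT-shARF label neither passed, at 0.28 ± 0.22 for RNA and 0.48 ± 0.17 for footprints.

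Hnrnpd, also called AUF1, had RNA of 26.4 and 34.2 CPM in WT-shSCR, 45.0 and 44.3 CPM in those labelled WT-shARF and 36.0 and 40.4 CPM in Arf-/- shSCR. Its footprints were 130.1 and 135 CPM in WT-shSCR, 168 and 170.1 CPM in those labelled WT-shARF and 218 and 232 CPM in Arf-/- shSCR. The order of the groups differed between the assays, with the libraries labelled WT-shARF highest in RNA and Arf-/- shSCR highest in footprints. Its footprints rose in Arf-/- shSCR by 0.77 ± 0.12 (adjusted p = 1.41e-05), and its RNA at 0.35 ± 0.26 (adjusted p = 0.456) did not pass. Hnrnpab had RNA of 339.9 and 336 CPM in WT-shSCR, 465 and 463 CPM in those labelled WT-shARF and 436 and 441 CPM in Arf-/- shSCR. Its footprints were 446 and 412 CPM in WT-shSCR, 609 and 655 CPM in those labelled WT-shARF and 708 and 617 CPM in Arf-/- shSCR. Replicates of its RNA lay close together, and WT-shSCR was the lowest group in both assays. Footprints rose by 0.64 ± 0.091 (adjusted p = 3.34e-06) in Arf-/- shSCR and by 0.56 ± 0.086 (adjusted p = 1.81e-05) in the libraries labelled WT-shARF, and RNA rose by 0.45 ± 0.13 (adjusted p = 0.0277) in the latter. The RNA change in Arf-/- shSCR, 0.37 ± 0.14 (adjusted p = 0.122), did not pass.

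Hnrnpk, a KH-domain protein that binds C-rich RNA, had the highest RNA level per length in WT-shSCR. Its RNA was 557 and 511 CPM in WT-shSCR, 641 and 729 CPM in those labelled WT-shARF and 834 and 725 CPM in Arf-/- shSCR. Its footprints were 1005 and 948 CPM in WT-shSCR, 1153 and 1189.8 CPM in those labelled WT-shARF and 1386 and 1444 CPM in Arf-/- shSCR. In footprints the 3 groups stood apart in ascending order. In Arf-/- shSCR its RNA rose by 0.54 ± 0.15 (adjusted p = 0.0268) and its footprints by 0.55 ± 0.073 (adjusted p = 1.11e-06), and in the libraries labelled WT-shARF its footprints rose by 0.26 ± 0.071 (adjusted p = 0.0125). Hnrnpu, the scaffold attachment factor that binds chromatin and RNA, had RNA of 317 and 403 CPM in WT-shSCR, 491 and 491 CPM in those labelled WT-shARF and 569.9 and 500.3 CPM in Arf-/- shSCR. Its footprints were 909.9 and 895 CPM in WT-shSCR, 1116 and 1189 CPM in those labelled WT-shARF and 1327 and 1409.8 CPM in Arf-/- shSCR. It was called in each of the 4 fits of RNA and footprints against WT-shSCR, as Hnrnph1 was. Its RNA rose by 0.58 ± 0.16 (adjusted p = 0.0276) in Arf-/- shSCR and by 0.45 ± 0.14 (adjusted p = 0.0381) in the libraries labelled WT-shARF, and its footprints by 0.61 ± 0.074 (adjusted p = 1.70e-07) and 0.35 ± 0.072 (adjusted p = 8.45e-04). Its relatives Hnrnpul1 and Hnrnpul2 passed in none of these fits, with footprint changes in Arf-/- shSCR of 0.20 ± 0.15 and 0.031 ± 0.12.

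Hnrnpc binds uridine tracts in nascent transcripts. Its RNA was 153 and 157 CPM in WT-shSCR, 168 and 166 CPM in those labelled WT-shARF and 209 and 196 CPM in Arf-/- shSCR, and its footprints were 358 and 342 CPM in WT-shSCR, 408 and 421 CPM in those labelled WT-shARF and 478 and 512 CPM in Arf-/- shSCR. In both assays the groups stood in ascending order without overlap, and footprints passed in Arf-/- shSCR only, at 0.51 ± 0.093 (adjusted p = 1.12e-04), with 0.25 ± 0.091 in the libraries labelled WT-shARF. Hnrnpm, which binds GU-rich sites, had RNA of 113 and 103 CPM in WT-shSCR, 125 and 146 CPM in those labelled WT-shARF and 168 and 179 CPM in Arf-/- shSCR and footprints of 425 and 353 CPM in WT-shSCR, 479.9 and 489 CPM in those labelled WT-shARF and 545 and 582 CPM in Arf-/- shSCR. Its RNA rose in Arf-/- shSCR by 0.68 ± 0.17 (adjusted p = 0.0157), and its footprints rose by 0.54 ± 0.096 (adjusted p = 7.37e-05) and, in the libraries labelled WT-shARF, by 0.32 ± 0.093 (adjusted p = 0.0222). Hnrnpr, a relative of Syncrip, had RNA of 61.7 and 55.5 CPM in WT-shSCR, 57.4 and 80.1 CPM in those labelled WT-shARF and 84.8 and 91.5 CPM in Arf-/- shSCR and footprints of 85.9 and 85.1 CPM in WT-shSCR, 118 and 120.0 CPM in those labelled WT-shARF and 139 and 135 CPM in Arf-/- shSCR. Its footprints rose in both comparisons, by 0.69 ± 0.14 (adjusted p = 4.44e-04) and 0.48 ± 0.15 (adjusted p = 0.0296).

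Hnrnpl and Hnrnpll bind CA repeats, the latter best known for splicing of Ptprc in lymphocytes. Hnrnpl RNA was 472 and 525 CPM in WT-shSCR, 613 and 517 CPM in those labelled WT-shARF and 680.2 and 657 CPM in Arf-/- shSCR, and its footprints were 539 and 539.6 CPM in WT-shSCR, 658 and 644 CPM in those labelled WT-shARF and 707 and 725 CPM in Arf-/- shSCR. Its footprints rose by 0.42 ± 0.083 (adjusted p = 3.21e-04) in Arf-/- shSCR and by 0.27 ± 0.081 (adjusted p = 0.0238) in the libraries labelled WT-shARF. Hnrnpll RNA was 61.4 and 45.2 CPM in WT-shSCR, 85.2 and 87.4 CPM in those labelled WT-shARF and 97.2 and 79.0 CPM in Arf-/- shSCR, and its footprints were 99.0 and 106 CPM in WT-shSCR, 119 and 129 CPM in those labelled WT-shARF and 131 and 159.8 CPM in Arf-/- shSCR. Its RNA rose in the libraries labelled WT-shARF by 0.67 ± 0.19 (adjusted p = 0.0297) and its footprints in Arf-/- shSCR by 0.52 ± 0.14 (adjusted p = 0.00784). Its RNA in Arf-/- shSCR, at 0.71 ± 0.22, stood at the threshold of 0.05 and was not called.

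Among SR genes, Srsf1, Srsf3 and Srsf7, which also act as adaptors of mRNA export, had the lowest WT-shSCR and the highest Arf-/- shSCR values in both assays. Srsf1 (chr11:88047373-88053755), the founding member of the family, had RNA of 92.2 and 98.1 CPM in WT-shSCR, 127 and 116 CPM in those labelled WT-shARF and 143 and 143 CPM in Arf-/- shSCR. Its footprints were 252 and 185 CPM in WT-shSCR, 266 and 288 CPM in those labelled WT-shARF and 354 and 334 CPM in Arf-/- shSCR. The 3 groups followed each other without overlap, although the WT-shSCR footprint libraries differed more than those of the other groups. RNA rose by 0.59 ± 0.17 (adjusted p = 0.0413) and footprints by 0.67 ± 0.12 (adjusted p = 8.11e-05) in Arf-/- shSCR, and the footprint change in the libraries labelled WT-shARF was 0.34 ± 0.12 (adjusted p = 0.0505). Srsf7 had RNA of 88.1 and 72.3 CPM in WT-shSCR, 106 and 105 CPM in those labelled WT-shARF and 156 and 135 CPM in Arf-/- shSCR and footprints of 114 and 132 CPM in WT-shSCR, 169 and 181 CPM in those labelled WT-shARF and 229.9 and 199 CPM in Arf-/- shSCR. It had the largest changes of the SR genes in Arf-/- shSCR, 0.85 ± 0.18 (adjusted p = 0.00658) for RNA and 0.82 ± 0.13 (adjusted p = 1.38e-05) for footprints. With the WT-shARF label its footprints rose by 0.52 ± 0.13 (adjusted p = 0.00560).

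Srsf3 RNA was 107 and 105 CPM in WT-shSCR, 129 and 141 CPM in those labelled WT-shARF and 166 and 142 CPM in Arf-/- shSCR. Its footprints were 333 and 276 CPM in WT-shSCR, 413 and 399 CPM in those labelled WT-shARF and 528 and 484 CPM in Arf-/- shSCR. The groups again stood in order without overlap. Footprints rose by 0.74 ± 0.10 (adjusted p = 1.34e-06) and 0.41 ± 0.098 (adjusted p = 0.00412), and RNA at 0.53 ± 0.17 (adjusted p = 0.0640) in Arf-/- shSCR was not called. Srsf2, known as SC35 and a marker of nuclear speckles, had RNA of 117 and 114 CPM in WT-shSCR, 157 and 133 CPM in those labelled WT-shARF and 195 and 147 CPM in Arf-/- shSCR and footprints of 385 and 286 CPM in WT-shSCR, 479 and 472 CPM in those labelled WT-shARF and 476 and 440.0 CPM in Arf-/- shSCR. Its footprints rose by 0.46 ± 0.11 (adjusted p = 0.00238) in Arf-/- shSCR and by 0.50 ± 0.10 (adjusted p = 9.91e-04) in the libraries labelled WT-shARF. Srsf10, which turns into a general splicing repressor when dephosphorylated, had RNA of 28.2 and 25.8 CPM in WT-shSCR, 26.3 and 30.9 CPM in those labelled WT-shARF and 47.3 and 44.7 CPM in Arf-/- shSCR and footprints of 71.1 and 55.5 CPM in WT-shSCR, 89.5 and 102 CPM in those labelled WT-shARF and 109 and 74.7 CPM in Arf-/- shSCR. In RNA the Arf-/- shSCR libraries lay above all others, at a change of 0.76 ± 0.25 (adjusted p = 0.0651) that was not called, while its footprints rose by 0.54 ± 0.18 (adjusted p = 0.0286) and 0.60 ± 0.17 (adjusted p = 0.0187). Its 2 Arf-/- shSCR footprint libraries differed by more than those of the other groups. Srsf11 had footprints of 75.4 and 78.4 CPM in WT-shSCR, 90.2 and 84.9 CPM in those labelled WT-shARF and 116 and 109.9 CPM in Arf-/- shSCR, which rose in Arf-/- shSCR by 0.57 ± 0.15 (adjusted p = 0.00524), and RNA of 51.2 and 56.8 CPM in WT-shSCR, 51.5 and 61.8 CPM in those labelled WT-shARF and 67.3 and 54.1 CPM in Arf-/- shSCR, which overlapped between all groups.

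The other SR genes passed in no fit. Srsf6 had RNA of 154 and 130.4 CPM in WT-shSCR, 183 and 173 CPM in those labelled WT-shARF and 195 and 191 CPM in Arf-/- shSCR and footprints of 199.9 and 211 CPM in WT-shSCR, 237 and 228 CPM in those labelled WT-shARF and 231 and 252 CPM in Arf-/- shSCR. The footprint change was 0.24 ± 0.11 (adjusted p = 0.137) in Arf-/- shSCR. Srsf5 had RNA of 79.1 and 67.8 CPM in WT-shSCR, 71.3 and 112 CPM in those labelled WT-shARF and 87.0 and 106 CPM in Arf-/- shSCR and footprints of 234 and 268 CPM in WT-shSCR, 263 and 236 CPM in those labelled WT-shARF and 249.9 and 260.3 CPM in Arf-/- shSCR. Its footprints overlapped in all 3 groups, with a change of 0.037 ± 0.11 (adjusted p = 0.863) in Arf-/- shSCR. Srsf4 was low in footprints, with 52 to 256 reads per library, and its footprint changes of 0.62 ± 0.24 (adjusted p = 0.0685) and 0.63 ± 0.25 (adjusted p = 0.104) were large but did not pass. Srsf9 had footprint changes of 0.27 ± 0.14 and 0.054 ± 0.15.

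**Figure D3:**
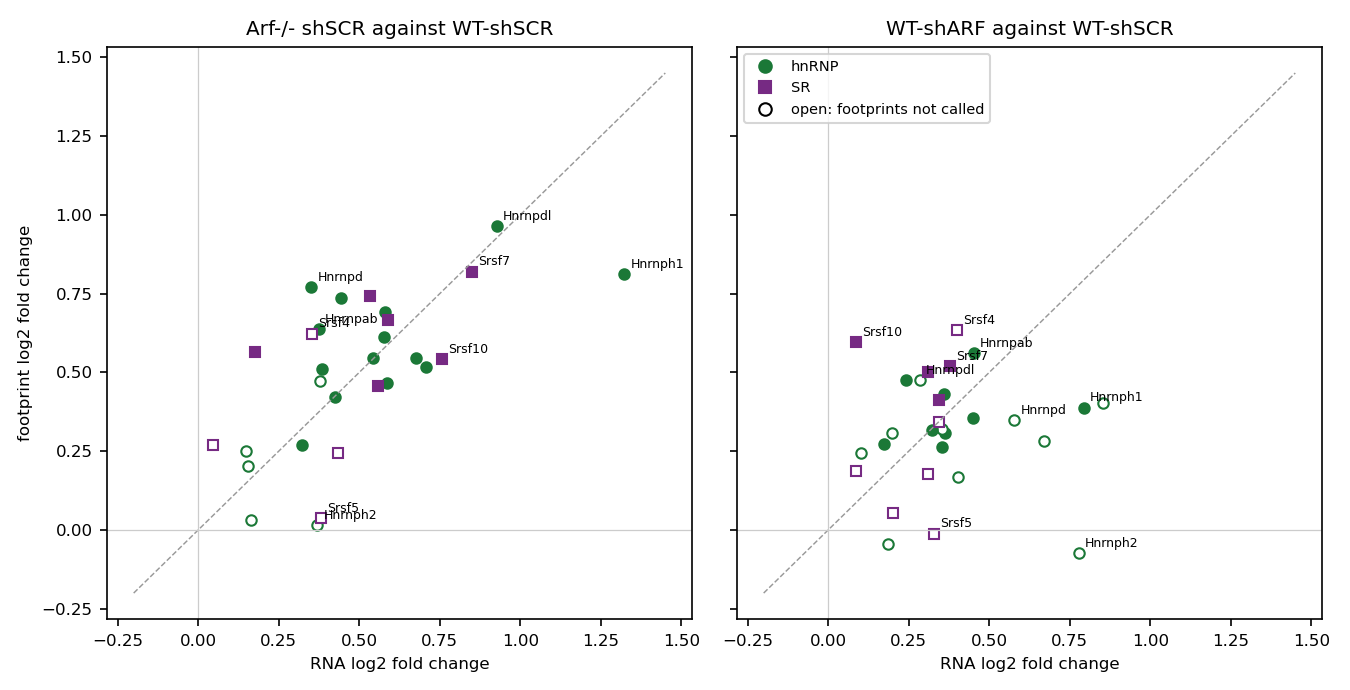
Log2 fold change of RNA (x axis) against that of footprints (y axis) for the 19 hnRNP genes (green circles) and 10 SR genes (purple squares). Filled symbols passed the footprint test and the dashed line marks equal changes. Hnrnph1 lies right of the line on the left panel (1.32 in RNA, 0.81 in footprints) and Hnrnph2 on the right panel (0.78 and -0.073).

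Arf-/- shSCR was set directly against the libraries labelled WT-shARF to ask whether the changes differed in size. In footprints 8 of 19 hnRNP genes and 2 of 10 SR genes were higher in Arf-/- shSCR and none lower (3.93% of 10941 genes called higher, 4.3% lower). They were Hnrnpa3, Hnrnpc, Hnrnpd, Hnrnpdl, Hnrnpf, Hnrnph1, Hnrnpk, Hnrnpu, Srsf1 and Srsf3. Hnrnpdl had the largest difference at 0.48 ± 0.13 (adjusted p = 0.0222), followed by Hnrnph1 at 0.42 ± 0.076 (adjusted p = 0.00178) and Hnrnpd at 0.42 ± 0.099 (adjusted p = 0.0131). The median was 0.22 for hnRNP and 0.13 for SR genes beside 0.0027 for all genes. In RNA edgeR and DESeq2 called 0 members (1.38% of 10632 genes higher, 1.19% lower), with 5 higher and 1 lower at an unadjusted p under 0.05 and 20 of 29 above 0. Of all 10632 genes, 851 were higher and 889 lower at that unadjusted threshold. The 10 footprint calls were lost without either WT-shARF footprint library, as were nearly all calls over all genes. Without Arf-/- shSCR replicate 2 fewer members were called, and calls over all genes fell too. Fitted footprint changes of 24 (without WT-shARF replicate 1), 23 (without WT-shARF replicate 2) and 25 (without Arf-/- shSCR replicate 2) of 29 members were above 0.

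TE, tested as an assay-by-condition interaction in 8 libraries, was called for 0 of 29 members in Arf-/- shSCR against WT-shSCR (0.0884% of 11314 genes higher, 0.106% lower), by edgeR and by DESeq2. The median log2 change of TE was 0.0011 for hnRNP and -0.0068 for SR genes beside -0.036 for all genes, and 15 of 29 members were above 0. At an unadjusted p under 0.05 no member was higher and 1, Hnrnph1, was lower, beside 326 of the 11314 genes higher and 447 lower. Under the WT-shARF label against WT-shSCR neither tool called a member (0.0354% of 11289 genes higher, 0% lower), with medians of -0.047 for hnRNP and 0.094 for SR genes beside 0.0065. There 0 were higher and 2, Hnrnph1 and Hnrnph2, were lower at an unadjusted p under 0.05, beside 430 of the 11289 genes higher and 321 lower. Between Arf-/- shSCR and the libraries labelled WT-shARF neither tool called a member either (0.0172% of 11632 genes higher, 0.0258% lower), with Hnrnpd and Hnrnph2 higher and Srsf10 lower at an unadjusted p under 0.05. At that threshold 431 of the 11632 genes were higher and 449 lower. Counts of 0 to 2 of 29 members in a direction were not far from these shares of all genes.

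The precision of TE was limited. The 95% interval of the log2 change reached 0.31 to 1.12 to either side for hnRNP genes in Arf-/- shSCR, with a median of 0.41, and it stayed within -1 to 1 for 18 of 19 hnRNP and 9 of 10 SR genes. On libraries simulated with a preset spread and known changes of TE, the adjusted test recovered hardly any of them. The tests of RNA and footprints recovered only a minority of theirs. That spread was not estimated from these libraries, so the simulation does not measure what the tests could find here. With intervals this wide, the lack of calls does not show that TE was unchanged, and the intervals are the better guide. The largest changes in Arf-/- shSCR were -0.55 (95% interval -0.96 to -0.14) for Hnrnph1 and 0.38 (95% interval -0.13 to 0.90) for Hnrnpd, and among SR genes -0.37 (95% interval -0.81 to 0.062) for Srsf5 and 0.36 (95% interval -0.17 to 0.88) for Srsf11. For the WT-shARF label they were -0.84 (95% interval -1.32 to -0.35) for Hnrnph2, -0.44 (95% interval -1.45 to 0.56) for Hnrnph3, 0.52 (95% interval -0.094 to 1.14) for Srsf10 and -0.33 (95% interval -0.80 to 0.13) for Srsf5. For Hnrnph2 the unadjusted p was 0.00125 and the adjusted p 0.293, and its RNA rose where its footprints did not.

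**Figure D4:**
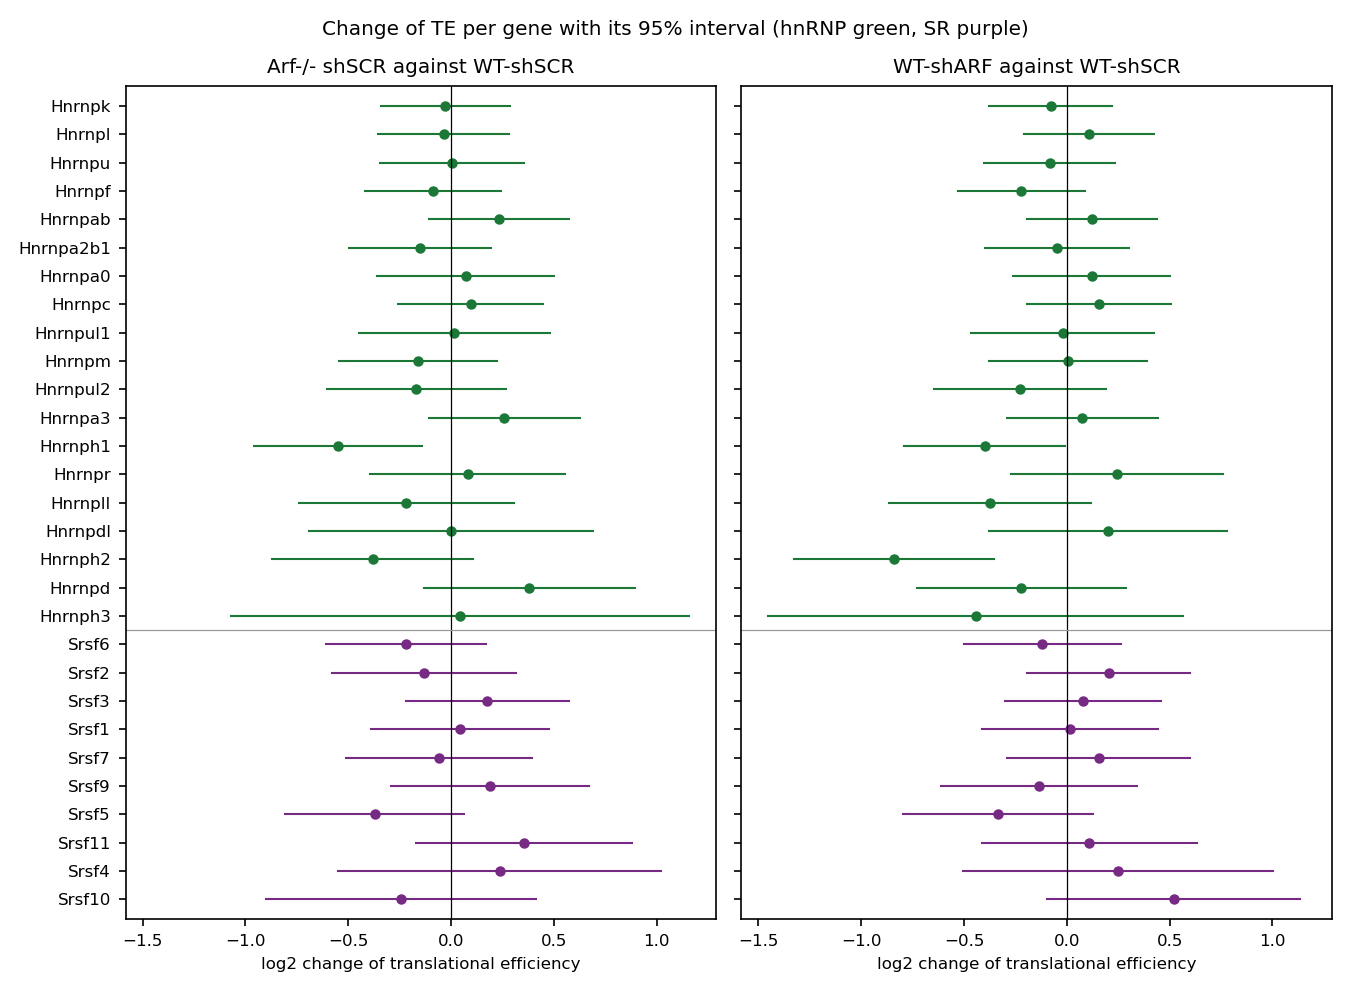
Fitted log2 change of TE (point) with its 95% interval (line) for each tested gene, Arf-/- shSCR against WT-shSCR on the left and WT-shARF against WT-shSCR on the right. Points scatter around 0, and the intervals of Hnrnph1 (both panels) and Hnrnph2 (right panel, -1.32 to -0.35) leave out 0 without passing the adjusted test.

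The level of TE itself was high. In WT-shSCR the log2 ratio of footprint CPM to RNA CPM had a median of 1.17 over hnRNP genes and 0.91 over SR genes, beside -0.048 over 10611 genes with reads, and these medians stood at percentiles 91.5 and 86.4 of all genes. Under the WT-shARF label they were 1.17 and 0.96, and in Arf-/- shSCR 1.28 and 0.95. The values are relative to the total of each assay and are no absolute rate. Within each family the spread was wide: Hnrnpa3 had 3.23 in WT-shSCR, Hnrnph2 2.29, Hnrnph1 2.15 and Hnrnpa2b1 2.14, but Hnrnpl had 0.11 and Hnrnpul1 -0.43. Among SR genes Srsf5 had 1.77, Srsf2 1.53 and Srsf3 1.52, and Srsf4 was lowest with -0.14. Reads without a unique place are missing from these ratios, and their share differed between the assays. Of the coding 25-mers, 97.8% of Hnrnpa3, 76.9% of Hnrnph2, 95.7% of Srsf3 and 74.3% of Srsf5 occur in other transcripts. For Hnrnpa2b1 it was 30.9%, for Hnrnph1 11.1% and for Srsf2 0%. The part of this sharing in the TE levels was not tested. The order of Hnrnpa3 first and Hnrnpul1 last among hnRNP genes held in all 3 groups.

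**Figure D5:**
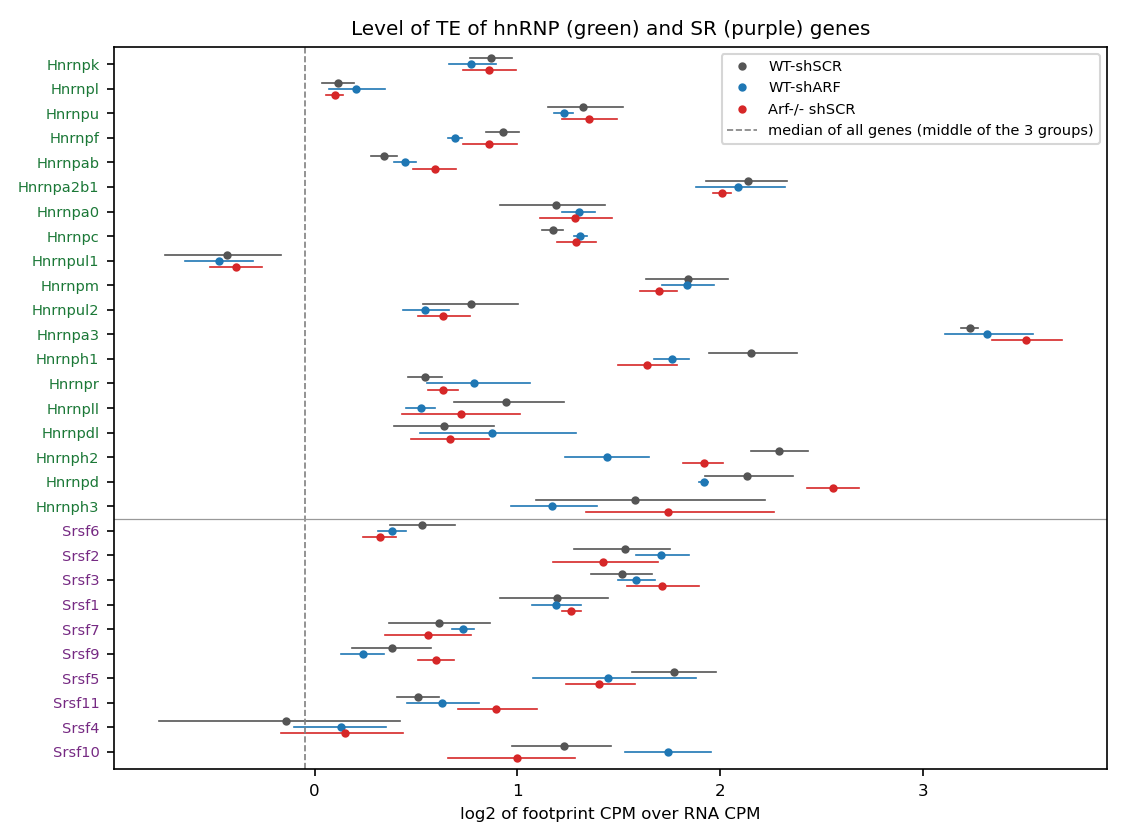
Log2 of mean footprint CPM over mean RNA CPM per gene and group. Lines span the lowest and highest ratio over pairings of single libraries, and the dashed line is the median of all genes with reads (-0.048 in WT-shSCR). All but Hnrnpul1 among the hnRNP genes lie right of it in each group, Hnrnpa3 farthest at 3.23 to 3.51.

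The families' medians lay close together. The median log2 fold change of hnRNP genes minus that of SR genes in Arf-/- shSCR was -0.059 for RNA (-0.15 to -0.028 over pairings of single libraries), -0.036 for footprints (-0.2 to 0.2) and 0.0079 for TE (-0.29 to 0.16). With the WT-shARF label it was 0.041 for RNA (0.036 to 0.24), -0.061 for footprints (-0.17 to 0.031) and -0.14 for TE (-0.32 to 0.02). The range over pairings left out 0 for RNA only, with opposite signs in the comparisons, and these differences carry no test. Summed over members, hnRNP genes had 3.97 to 4.36 times the RNA CPM and 4.2 to 4.62 times the footprint CPM of SR genes over all libraries, and both other groups overlapped with WT-shSCR in this ratio in each assay.

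Hnrnpa1, the left-out gene of the A/B type, had RNA of 54.6 and 62.0 CPM in WT-shSCR, 59.5 and 71.0 CPM in those labelled WT-shARF and 81.2 and 109 CPM in Arf-/- shSCR and footprints of 244 and 225 CPM in WT-shSCR, 312 and 303 CPM in those labelled WT-shARF and 305 and 397 CPM in Arf-/- shSCR. In Arf-/- shSCR its RNA rose by 0.71 ± 0.21 (adjusted p = 0.0441) and its footprints by 0.59 ± 0.11 (adjusted p = 2.47e-04), with a TE change of -0.15 ± 0.23 (adjusted p = 0.941). Footprints in the libraries labelled WT-shARF rose by 0.39 ± 0.1 (adjusted p = 0.00762), and the TE change there was 0.22 ± 0.21 (adjusted p = 0.901). Of its coding 25-mers, 85.1% also occur in other transcripts.

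Because the study concerns 5′-TOP mRNAs, whose first base is a C followed by a run of pyrimidines through which mTOR and Larp1 set their translation, the first bases of the members' transcripts were read from RefSeq starts on GRCm38.p6. Starts were given for 17 of 19 hnRNP and all 11 SR genes. By the rule of a C with at least 4 pyrimidines after it, 1 hnRNP gene and 1 SR gene had such a start, beside 2.74% of all counted genes with a start and 20.3% of the genes on the study's 5′-TOP list. The following starts show these genes, the gene with the highest TE and the left-out Hnrnpa1, with the run in capitals.
Hnrnpa0, chr13:58128537-58128556, minus strand: CTCTTTgtgtggtgtcccga
Srsf5, chr12:80945499-80945518, plus strand: CTTCCattttgtgcaacgtc
Hnrnpa3, chr2:75659259-75659278, plus strand: gcctcttcctctcggtccca
Hnrnpa1, chr15:103240397-103240416, plus strand: ggcgggataaaagggcgagc
Hnrnpa0 and Srsf5 had TE changes of 0.071 ± 0.21 and -0.37 ± 0.21 in Arf-/- shSCR and 0.12 ± 0.19 and -0.33 ± 0.23 in the libraries labelled WT-shARF, none past the test. Hnrnpa3 lacks a leading C at the listed start and follows it with a run of pyrimidines. GENCODE M21 starts the gene within this run, at chr2:75659261, where the rule is met. It starts Srsf5 at chr12:80945504, just past the run in capitals, where the rule is not met. The calls for these 2 genes thus depend on the annotation. Listed starts need not be the ones used in these cells.

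The members' promoters (250 bases before to 50 after each RefSeq start, GRCm38.p6) were searched on both strands for the E-box CACGTG, for the E2F motifs TTTCCCGC and TTTGGCGC and for the CCAAT box CCAAT. The E-box was found in 5 of 17 hnRNP genes, in 0 of 11 SR genes and in 9.31% of all 15609 counted genes with a promoter. An E2F motif was found in 2 hnRNP genes (Hnrnpr and Hnrnpul1) and 2 SR genes, beside 2.41% of all genes. CCAAT was found in 12 hnRNP and 4 SR genes, beside 42.3% of all genes. The windows below show the E-boxes of the hnRNP genes and an E2F motif, or its reverse complement, of each SR gene that holds one, with the motif in capitals.
Hnrnpa3, chr2:75659229-75659258, plus strand: cggatagcacatCACGTGgtgactggcccc
Hnrnpd, chr5:99978953-99978982, minus strand: gcgctccggagcCACGTGaccgggacgcgc
Hnrnpf, chr6:117907713-117907742, plus strand: cgagcgggcgctCACGTGgcccgaggcgcc
Hnrnph2, chrX:134601182-134601211, plus strand: ccgagagttgctCACGTGaccgagatctca
Hnrnpm, chr17:33685428-33685457, minus strand: gtcgttcggggtCACGTGagcgcgcaggcg
Srsf1, chr11:88047295-88047324, plus strand: cccgcggcgccTTTCCCGCcaaaggccgtt
Srsf10, chr4:135855998-135856027, plus strand: ccagagatctcGCGGGAAAaagccgttgtc
The 5 genes with an E-box had RNA changes in Arf-/- shSCR from 0.32 ± 0.15 (Hnrnpf) to 0.68 ± 0.17 (Hnrnpm), within the range of the other members. A match of letters is a description of the window and no site of binding.

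Transcripts that GENCODE M21 marks for NMD are annotated for 9 of 19 hnRNP genes and 9 of 11 SR genes, beside 21.5% of the 19915 counted genes found in the annotation. Among the members called in RNA in Arf-/- shSCR, Hnrnpu has 3 such transcripts, Hnrnpk 3, Hnrnpa2b1, Hnrnpdl and Srsf1 2 each, Srsf7 1 and Hnrnph1 and Hnrnpm 0. Counts per gene do not separate them from productive transcripts.

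Other parts of the splicing machinery were set beside the 2 families, to be read against 3.94% of all genes called higher in RNA and 9.57% in footprints in Arf-/- shSCR. At an unadjusted p under 0.05, RNA of 1169 of 10659 genes was higher there and that of 1209 lower. Of 37 other splicing regulators, RNA of 6 and footprints of 17 rose in Arf-/- shSCR and none fell, with medians of 0.31 and 0.36. Matr3, a nuclear matrix protein, rose in RNA by 0.86 ± 0.17 (adjusted p = 0.00267), and Tardbp and Ilf2 in footprints by 0.78 ± 0.10 (adjusted p = 6.21e-07) and 0.93 ± 0.13 (adjusted p = 2.69e-06). Of 41 core spliceosome genes, RNA of 3 and footprints of 21 rose and none fell (medians 0.35 and 0.34), among them the Sm protein genes Snrpe at 1.07 ± 0.14 (adjusted p = 1.13e-06) and Snrpd3 at 0.74 ± 0.13 (adjusted p = 5.99e-05) in footprints. Of 19 SR-related and Tra2 genes, 1 rose in RNA, a share near that of all genes, and 4 in footprints (medians 0.21 and 0.21), with Tra2b, an activator of exon inclusion, at 0.68 ± 0.12 (adjusted p = 8.00e-05). Of 16 genes of SR import and NMD, 0 rose in RNA, where 5 were higher and 0 lower at an unadjusted p under 0.05, and 5 in footprints (medians 0.35 and 0.35), led by the exon junction genes Magoh at 0.86 ± 0.15 (adjusted p = 9.08e-05), Rbm8a at 0.81 ± 0.15 (adjusted p = 1.91e-04) and Eif4a3 at 0.75 ± 0.14 (adjusted p = 2.36e-04). Of 8 genes for SR kinases and a phosphatase, 0 of the 7 tested in RNA (2 higher at an unadjusted p under 0.05) and 1 of 8 in footprints rose, Ppp1cc at 0.45 ± 0.14 (adjusted p = 0.0190), with medians of 0.2 and 0.2. The hnRNP and SR medians of 0.43 to 0.55 lay above each of these medians, a difference that carries no test.

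Under the WT-shARF label footprints of 9 of 36 other splicing regulators rose and 2 fell (5.63% of all genes called higher, 5.5% lower), with Ewsr1 at 0.50 ± 0.11 (adjusted p = 0.00185) and Syncrip at 0.41 ± 0.097 (adjusted p = 0.00441). Footprints of 5 of 41 core spliceosome genes rose, among them Phf5a at 0.76 ± 0.20 (adjusted p = 0.0107), as did those of 2 of 19 SR-related genes (Pnn at 0.60 ± 0.16 (adjusted p = 0.0133), Tra2b at 0.43 ± 0.12 (adjusted p = 0.0181)) and 5 of 16 genes of SR import and NMD. Of the 8 SR kinase and phosphatase genes 0 passed in footprints, and 0 at an unadjusted p under 0.05. At that threshold 1227 of 10307 genes were higher and 1193 lower. In RNA 2 of 37 other regulators (Mbnl1 at 0.75 ± 0.22 (adjusted p = 0.0325), Ilf2 at 0.56 ± 0.17 (adjusted p = 0.0332)), 1 of 41 core genes and 1 of 16 genes of SR import and NMD rose, shares not far from the 3.11% of all genes called higher, while the epithelial regulator Esrp1 fell (-0.86 ± 0.22 (adjusted p = 0.0127)). Against the libraries labelled WT-shARF, Arf-/- shSCR had higher footprints of Srpk1, a kinase of SR proteins, by 0.62 ± 0.13 (adjusted p = 0.00685), of 10 of 36 other regulators, with Tia1 at 1.44 ± 0.26 (adjusted p = 0.00130), and of 6 of 41 core genes (3.93% of all genes called higher), with Sf3b1 at 0.47 ± 0.08 (adjusted p = 9.14e-04). TE was called for no gene of any of these lists in either comparison with WT-shSCR, by edgeR, with 0 to 2 genes of a list past an unadjusted p of 0.05 in a direction. Of all genes, 326 of 11314 were higher and 447 lower at that threshold in Arf-/- shSCR. Under the WT-shARF label they were 430 and 321 of 11289.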

How the data were processed

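Ribosome profiling and RNAseq libraries came from the same 3 groups of MEFs. The authors deposited raw counts of reads per gene. By their methods, adapters were clipped with fastx_clipper, barcodes removed with cutadapt, molecular identifiers were removed with umi_tools, with no step named that collapses duplicates, rRNA reads were removed with Bowtie2, and reads were aligned to mm10 with TopHat and counted over coding sequence with HTSeq (versions not given in the sources used here). RNA was depleted of rRNA and fragmented to the size of footprints. Counts without molecular identifiers carry amplification error, and reads without a unique place were not counted.

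The 5 rows of each table that name no gene were left out, among them alignments without a unique place, 79.2 to 81.4% of alignments in RNAseq and 46.3 to 52.9% in footprints. Each comparison was fitted on all genes with edgeR 4.0.16 in R 4.3.3 (filterByExpr, TMM factors, glmQLFit and glmQLFTest, Benjamini-Hochberg adjusted p under 0.05 over all genes tested), RNA and footprints on 4 libraries and TE as an assay-by-condition interaction on 8. With 2 libraries against 2, an exact permutation test of a single gene could not go below 0.333, so none is given. The pipeline was tested on simulated data. Alternatives were DESeq2 1.42.0, other scaling factors and filters, all groups in one fit, a replicate block, each library left out and, chosen after seeing the data, members with few shared 25-mers. Replicates of a group differed by more than sampling noise. Members, lists and tests were chosen with earlier results of these data known.

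Library values are given for members called in any fit, for the 3 members of each family with the highest RNA per length in WT-shSCR, for the 2 of each family with the largest TE change in each comparison against WT-shSCR, for Hnrnpa1 and for Cdkn2a. Of each other splicing list, only genes among the 3 called with the smallest p in a fit were named. Coding lengths, shared 25-mers and NMD transcripts came from GENCODE M21, starts and promoters from RefSeq on GRCm38.p6. Figures were drawn with matplotlib 3.10.9.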

Additional observations from a re-analysis of the deposited data

Results flagged for a closer look

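The 10 members whose footprints differed between Arf-/- shSCR and the libraries labelled WT-shARF were listed because the direct test of that difference passed (edgeR, adjusted p under 0.05). All lay higher in Arf-/- shSCR. On the log2 scale the difference was 0.30 for Hnrnpa3, 0.26 for Hnrnpc, 0.42 for Hnrnpd, 0.48 for Hnrnpdl, 0.31 for Hnrnpf and 0.42 for Hnrnph1. It was 0.28 for Hnrnpk, 0.25 for Hnrnpu, 0.31 for Srsf1 and 0.32 for Srsf3. The calls of all 10 were lost without either of the WT-shARF footprint libraries, as were nearly all calls over all genes. Groups of 2 libraries allow no search for single libraries that stand apart.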

How the results depend on the processing

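The count of members called moved by more than 1.5 times under these settings. With all groups in one fit it was 13 for RNA in Arf-/- shSCR against WT-shSCR and 3 for RNA in the libraries labelled WT-shARF, where DESeq2 gave 2. The calls over all genes moved too. For RNA in Arf-/- shSCR they went from 845 of 10659 to 1050 of 11011 with all groups in one fit. Under the WT-shARF label they went from 765 of 10503 to 497 of 11011, and to 291 of 17818 with DESeq2. Members with few shared 25-mers were 18 of the 29 tested, taken from the same fits, so that their counts have a smaller base. Over these 18 it was 5 for RNA and 11 for footprints in Arf-/- shSCR and 7 for footprints in the libraries labelled WT-shARF. Between Arf-/- shSCR and these libraries it was 4 for footprints. Without a filter 1 member was called in RNA of that direct comparison, where calls over all genes went from 273 of 10632 to 617 of 18051. Leaving out 1 library gave 1 to 9 members for RNA and 0 to 19 for footprints in Arf-/- shSCR, 0 to 2 and 6 to 15 in the libraries labelled WT-shARF, and 0 to 2 and 0 to 8 in the direct comparison. Calls over all genes also varied with the library left out, for RNA and footprints in each of these comparisons. A group was then left with 1 library, and whether the members varied more than all genes was not tested. TE was called for 0 members under every setting run.

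The hnRNP minus SR median moved to 0.14 for RNA in the libraries labelled WT-shARF over members with few shared 25-mers. In the direct comparison it moved to -0.0630 with DESeq2, -0.0624 without a filter and -0.17 over members with few shared 25-mers for RNA, and to -0.0657 over the latter for footprints. Leaving out 1 library gave -0.14 to 0.011 for RNA, -0.16 to 0.17 for footprints and -0.18 to 0.090 for TE in Arf-/- shSCR. In the libraries labelled WT-shARF it gave -0.0040 to 0.17 for RNA, -0.14 to 0.023 for footprints and -0.19 to -0.026 for TE. In the direct comparison it gave -0.087 to -0.012 for RNA, -0.015 to 0.11 for footprints and -0.046 to 0.19 for TE.

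No called change of a named member turned its sign. Uncalled TE changes did. That of Srsf5 between Arf-/- shSCR and the libraries labelled WT-shARF was -0.00522 with DESeq2, -0.000277 with RLE factors, -0.0271 with at least 10 counts in every library and -0.0112 with the replicate block. Leaving out 1 library gave -0.38 to 0.27 for it, and for Srsf5 in the libraries labelled WT-shARF against WT-shSCR -0.62 to 0.031. There it gave -0.034 to 0.24 for Srsf11 and -0.95 to 0.043 for Hnrnph3. In Arf-/- shSCR against WT-shSCR it gave -0.42 to 0.54 for Hnrnph3 and -0.47 to 0.023 for Srsf10.

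Equal replicate numbers were not taken to pair the libraries: deviations of same-numbered libraries correlated at -0.067 to 0.037 between groups and at 0.040 to 0.094 between RNA and footprints of a group, across genes. With the replicate block 7 members were called in RNA and 22 in footprints in Arf-/- shSCR, and 6 and 18 in the libraries labelled WT-shARF. Over all genes 827 of 10659 and 2075 of 10737 were called in Arf-/- shSCR. Under the WT-shARF label these were 1011 of 10503 and 1376 of 10307. A filter on 25-mers found once in the genome was not run. For the changes above that alter a count or a sign, the cause was not tested. This holds also for the smaller number of libraries or genes where these were left out.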
